A study of Mus musculus with 7 samples.

Results

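Dual-specificity phosphatases (DUSPs) of the MAP kinase phosphatase family were examined in mouse bone-marrow-derived macrophages (BMDMs). The members were taken by gene symbol, with earlier results of these data known, and all 10 (Dusp1, Dusp2, Dusp3, Dusp4, Dusp5, Dusp6, Dusp7, Dusp8, Dusp10 and Dusp16) were found in both tables, among 48440 genes for the LPS experiment and 55352 genes for the AAV experiment. The cells were grown from wild-type marrow in M-CSF, the growth factor that drives marrow cells to become macrophages. In the LPS experiment they were left untreated (0 h) or stimulated with LPS, the bacterial surface lipid that is sensed by Toll-like receptor 4, at 100 ng per mL. These stimulated cells were taken at 2 h and at 4 h, and each of the 3 times has 1 library. For the AAV experiment BMDMs received, for 48 h, an adeno-associated virus vector that carried GFP (AAV-GFP, 2 samples) or Shisa3 (AAV-Shisa3, 2 samples), each under the ubiquitous CAG promoter. No LPS is named for the AAV samples, and nothing in the labels says whether the samples of a group came from separate cultures or animals, so p-values measure the spread between these samples only.

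MAP kinases (ERK, JNK and p38) are switched on by phosphorylation of a threonine and a tyrosine in their activation loop, and DUSPs switch them off by removing both phosphates. Many DUSP genes are themselves induced by MAP kinase signaling, which makes them negative feedback regulators. In macrophages Dusp1 is the best known of them, since it limits p38 and JNK activity and the cytokine output after Toll-like receptor stimulation. The family is usually grouped into nuclear inducible phosphatases (Dusp1, Dusp2, Dusp4 and Dusp5), cytoplasmic ERK-selective phosphatases (Dusp6 and Dusp7), JNK- and p38-selective phosphatases (Dusp8, Dusp10 and Dusp16) and the small atypical Dusp3, which lacks the MAP kinase binding domain of the others.

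The LPS libraries held 7263258 to 32659392 reads, with the 2 h library the shallowest, and Tnf, an LPS-induced cytokine, went from 137 normalized reads at 0 h to 36109 at 2 h and 19042 at 4 h. The depth of the AAV samples is unknown. Shisa3, the transduced gene, stood at 7.88 and 10.85 TPM under AAV-GFP and at 12.31 and 17.81 TPM in the AAV-Shisa3 samples, which follows the labels in direction but did not pass the threshold (log2 difference 0.63, adjusted p = 0.138 from limma). All 8 macrophage markers had reads in every LPS library and were above 0 in the AAV table. The T cell markers were at 0 in every AAV sample and had 1 read in all 3 LPS libraries together. Within the AAV samples, the summed TPM of the 8 neutrophil markers was 528 and 495 with AAV-GFP and 940 and 580 with AAV-Shisa3, and that of the 5 proliferation genes was 21.3 and 22.5 against 45.3 and 25.0, so that AAV-Shisa3 sample 1 stood above the others in both. In the LPS libraries at 0 h, 2 h and 4 h the 4 dendritic cell markers held 3.46, 7.43 and 15.7 reads per 1000000, the 4 B cell markers 7.12, 2.89 and 0.857, the proliferation genes 1094, 876 and 468, and the macrophage markers 32750, 22709 and 18375. On the authors' scale the summed proliferation genes were at 10971, 13901 and 8311 normalized reads, so their direction at 2 h depended on the scaling. The macrophage markers were at 328403, 360175 and 326113 normalized reads, so their fall in reads per 1000000 depended on the scaling as well. The neutrophil markers were at 2932, 5409 and 4802 normalized reads but at 292, 341 and 271 reads per 1000000. Their direction at 4 h therefore also depended on the scaling. The part of these cells in the DUSP values was not tested.

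RefSeq promoters (GRCm38.p6, 250 bases before to 50 bases after the start) were given for 9 of the 10 members, all but Dusp4. They were searched on both strands for the cyclic AMP response element (CRE) TGACGTCA, its core TGACG, the AP-1 site TGANTCA, the TATA box TATAAA, the NF-κB consensus and the serum response CArG box. The windows below are shown because these letters stand in the promoters of 5 of the members that were at least 2-fold higher with LPS. Each runs 5′ to 3′ on the strand of its gene, with the matched letters in capitals.
Dusp1, chr17:26508599-26508624: tagggcgggTGACGTCAccgcccggt
Dusp8, chr7:142095375-142095400: ccgctccgcTGACGTCAcctgccccc
Dusp8, chr7:142095331-142095356: ggctgcaggTGACGTCAggggctttt
Dusp2, chr2:127336153-127336178: gcccccagaacCGTCAgctcccgcca
Dusp5, chr19:53529079-53529104: atgggcactcaCGTCAcaggacgcgc
Dusp16, chr6:134792684-134792709: ttggtttcaagTGACGccatctcttt
Dusp5, chr19:53529055-53529080: ggaaatacCCATATTTGGccttatat
The complete CRE lay in the promoters of Dusp1 and Dusp8 and in 1.79% of the 32851 promoters of the table. The core, which each complete CRE also holds, was found in 5 of the 9 promoters (Dusp1, Dusp2, Dusp5, Dusp8 and Dusp16) and in 20.8% of all promoters. In Dusp2 and Dusp5 the core reads as CGTCA because it lies on the opposite strand, and in Dusp2 it lies just after the start. Dusp5 also held a pair of CArG boxes, of which the upstream one is shown, and 1.63% of all promoters held at least 1. Dusp1 held the core a second time, further from the start. AP-1, TATA box and NF-κB letters were found in 0 of the 9 promoters, against 7.81%, 13.6% and 4.50% of all promoters. These are matches of letters and were not tested as binding sites.

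With LPS the summed DUSP transcripts of BMDMs went from 2816 normalized reads at 0 h to 23846 at 2 h and 21999 at 4 h, and the family changed its make-up. At 2 h, 6 members were at least 2-fold higher than at 0 h (Dusp1, Dusp2, Dusp4, Dusp5, Dusp8 and Dusp16) and 2 were at least 2-fold lower (Dusp6 and Dusp7), against 20.5% of the 17854 genes kept that were higher and 24.7% that were lower. At 4 h, 7 were higher, the same 6 and Dusp10, and 2 were lower (Dusp6 and Dusp3), against 22.2% and 23.6% of all genes. Between 2 h and 4 h, 2 members were at least 2-fold higher at the later time (Dusp7 and Dusp10, against 17.9% of all genes) and 2 were lower (Dusp5 and Dusp3, against 15.2%). Members and genes were counted as 2-fold changed by their difference in log2(value + 1) of the authors' normalized reads, a scale that understates the change of low genes, while each fold given below is the plain ratio of the normalized reads. With 1 library per time point the folds carry no p-value and could not be checked in replicates, and the 95% intervals below cover counting error only. In bulk RNA, fewer cells and less RNA per cell cannot be told apart.

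Among the nuclear inducible phosphatases, Dusp2 (PAC-1), which acts on ERK and p38 in the nucleus, had the largest change. It had 21.9 normalized reads at 0 h (34 reads), 10602 at 2 h (4855 reads) and 5914 at 4 h (10883 reads). Its main transcript, of 4 exons, spans positions 127336159 to 127338376 of chromosome 2 (GRCm38, plus strand). Per kilobase, Dusp2 stood below 5 other members at 0 h and above all of them at 2 h. It was 485-fold higher at 2 h (95% interval 346 to 701) and 270-fold higher at 4 h (193 to 391), and with reads scaled to library totals 306-fold and 153-fold higher. It ranked 8 among 17854 genes by log2 difference at 2 h. The 3 genes whose log2 differences at 2 h and 4 h lay nearest to those of Dusp2, among 9001 genes with over 30 reads in each library, were the cytokine and chemokine genes Il27, Ccl4 and Il1b, at Euclidean distances of 0.45, 0.59 and 0.87 over these 2 differences.

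Dusp1 (MKP-1), an immediate-early gene product that dephosphorylates p38, JNK and ERK, had 124 normalized reads at 0 h, 7837 at 2 h and 10562 at 4 h, from 193, 3589 and 19437 reads. The main transcript, also of 4 exons, spans positions 26505590 to 26508519 of chromosome 17 (GRCm38, minus strand). Dusp1 was 63.1-fold higher at 2 h (54.6 to 73.3) and 85.1-fold higher at 4 h (73.8 to 98.6), and 39.9-fold and 48.1-fold with library totals. Unlike Dusp2, it was above its 2 h value at 4 h, by 1.35-fold (1.30 to 1.40), while Dusp2 was 1.79-fold lower at 4 h than at 2 h (1.73 to 1.85), and these counting intervals lie on opposite sides of no change. This order held with each of the 4 scalings of the libraries, with log2 differences between 4 h and 2 h of 0.27 to 0.49 for Dusp1 and of -0.78 or below for Dusp2.

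Dusp5, a nuclear phosphatase specific for ERK, went from 32.2 normalized reads at 0 h to 362 at 2 h and 178 at 4 h. Dusp4 (MKP-2), a nuclear phosphatase of ERK, JNK and p38, went from 22.5 to 116 and 70.1. Both were highest at 2 h. The fold at 2 h was 11.3 for Dusp5 (8.17 to 15.8) and 5.14 for Dusp4 (3.29 to 8.12), and by 4 h it was 5.54 (4.11 to 7.62) and 3.11 (2.13 to 4.66). With reads scaled to library totals Dusp4 was higher by a log2 difference of 0.80 at 4 h, short of 2-fold.

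**Figure D1:**
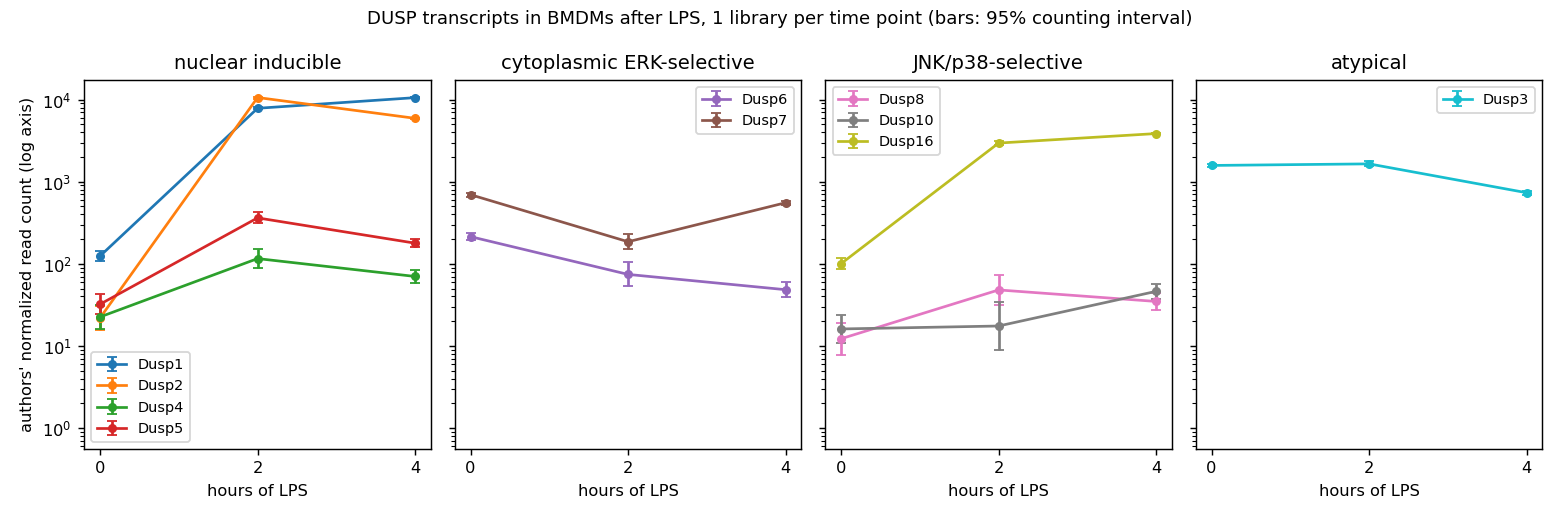
Normalized reads of the 10 members (log axis) against hours of LPS, in 4 panels by subclass, with 1 library per time point and bars for the 95% counting interval. Dusp1, Dusp2 and Dusp16 sit between 2955 and 10602 after LPS, above every other member at 2 h and 4 h, while Dusp6 falls at both times and Dusp7 falls at 2 h and is near its starting value at 4 h.

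The JNK- and p38-selective phosphatases did not move alike. Dusp16 (MKP-7), a phosphatase that shuttles between nucleus and cytoplasm and prefers JNK, had 100.3 normalized reads at 0 h, 2955 at 2 h and 3857 at 4 h, from 156, 1353 and 7098 reads. Its main transcript, of 7 exons, spans positions 134715473 to 134792625 of chromosome 6 (GRCm38, minus strand). Dusp16 was 29.4-fold higher at 2 h (24.9 to 35.0) and 38.4-fold higher at 4 h (32.8 to 45.3), so that, like Dusp1, it was higher at 4 h than at 2 h, by 1.31-fold (1.23 to 1.38). With library totals the folds of Dusp16 were 18.6 and 21.7. Dusp8 stayed low, with 12.2, 48.0 and 34.8 normalized reads from 19, 22 and 64 reads, and its fold was 3.93 at 2 h (2.03 to 7.68) and 2.85 at 4 h (1.68 to 5.03). Dusp10 (MKP-5) had 16.1, 17.5 and 46.2 normalized reads. Its 2 h value rests on 8 reads, and the fold of 1.09 at 2 h had an interval of 0.424 to 2.48, so a change was not detectable at this depth, and the log2 difference of 0.11 was -0.52 with library totals. At 4 h Dusp10 was 2.87-fold higher (1.82 to 4.68), and with reads scaled to library totals Dusp8 and Dusp10 were higher by 0.66 and 0.68 on the log2 scale, below 2-fold.

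The cytoplasmic ERK-selective phosphatases went the other way at 2 h. Dusp6 (MKP-3), the classical feedback inhibitor of ERK, had 214 normalized reads at 0 h, 74.2 at 2 h and 48.4 at 4 h, from 333, 34 and 89 reads. It was 2.89-fold lower at 2 h (2.02 to 4.24) and 4.43-fold lower at 4 h (3.50 to 5.66). Dusp7, its close relative, had 695 normalized reads at 0 h, 186 at 2 h and 555 at 4 h, from 1080, 85 and 1021 reads. The fall of Dusp7 at 2 h was 3.74-fold (2.999 to 4.72), the largest of the family at that time, and at 4 h it stood 2.99-fold above its 2 h value (2.39 to 3.77). At 4 h the log2 difference of Dusp7 from 0 h was -0.32, and its direction depended on the scaling, with 0.05 after centring on library medians and -1.15 with library totals. The genes nearest to Dusp7 by the same 2 differences were Clk4, Inip and Fam111a, at distances of 0.07, 0.15 and 0.16.

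Dusp3 (VHR), which acts on ERK and JNK without the usual docking domain, was the most abundant member per kilobase at 0 h. It had 1577 normalized reads at 0 h, 1649 at 2 h and 734 at 4 h. The log2 difference at 2 h was 0.06, and it was -0.60 with library totals and -0.00 with TMM factors, so no direction holds for Dusp3 at 2 h. At 4 h it was 2.15-fold lower than at 0 h (2.01 to 2.30), a difference that fell short of 2-fold after centring (log2 difference -0.73).

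**Figure D2:**
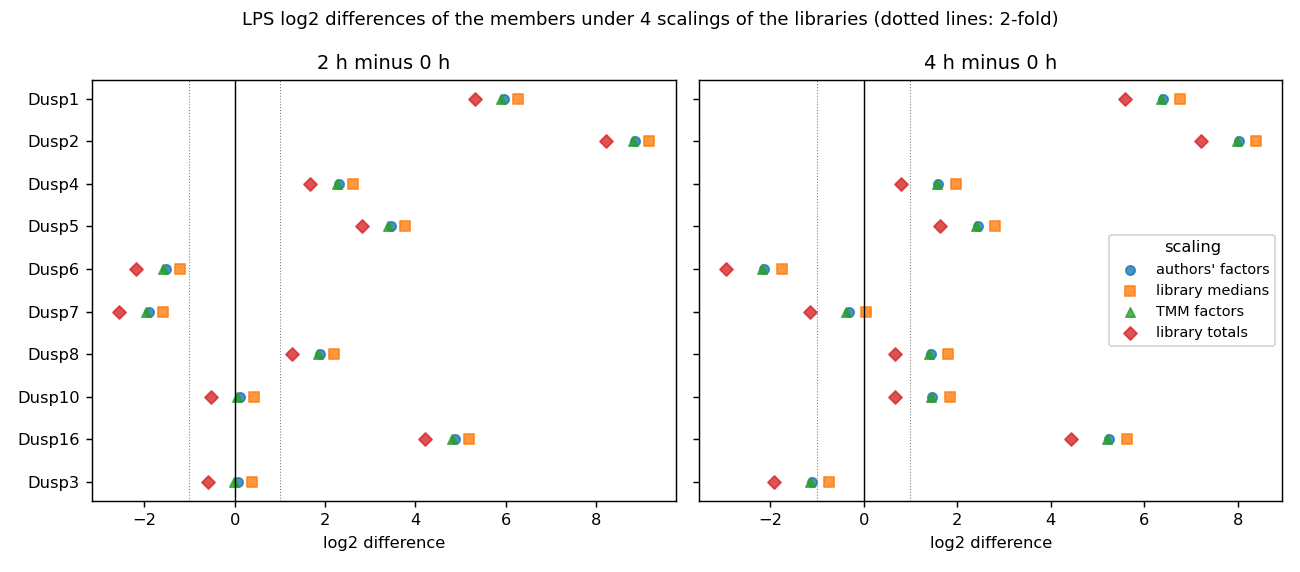
Log2 differences at 2 h and 4 h from 0 h for each member, with the libraries scaled by the authors' factors, by library medians, by TMM factors and by library totals; dotted lines mark 2-fold. The large rises of Dusp2, Dusp1 and Dusp16 and the fall of Dusp6 keep their direction under all 4, while Dusp3 and Dusp10 at 2 h and Dusp7 at 4 h lie on both sides of 0.

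Scaling to library totals moved the median log2 difference of all genes from -0.05 to -0.70 at 2 h and from -0.04 to -0.82 at 4 h. At 2 h the members past 2-fold were the same 8 genes under each of the 4 scalings, against 13.7% of all genes higher and 40.3% lower with library totals and 26.9% and 19.3% with centring. At 4 h the count was 4 higher (Dusp1, Dusp2, Dusp5 and Dusp16) and 3 lower (Dusp6, Dusp7 and Dusp3) with library totals, where 13.8% of all genes were higher and 44.3% lower. With centring it was 7 higher and 1 lower (Dusp6), where 29.6% and 17% of all genes were. Between 2 h and 4 h, library totals gave 2 higher and 3 lower (Dusp2 in addition), against 15.3% and 17.7% of all genes, and centring gave 2 higher and 1 lower (Dusp3), against 18.7% and 12.7%.

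The make-up of the pool within a library does not depend on the scaling. At 0 h Dusp3 held 56.0% of the 4377 reads of the family (95% Wilson interval 54.5 to 57.5) and Dusp7 24.7% (23.4 to 25.97), while Dusp2 held 0.777% (0.556 to 1.08). At 2 h Dusp2 held 44.5% of 10920 reads (43.5 to 45.4) and Dusp1 32.9% (32.0 to 33.8), and Dusp3 was down to 6.91% (6.45 to 7.41). At 4 h Dusp1 led with 48.0% of 40484 reads (47.5 to 48.5), ahead of Dusp2 at 26.9% (26.5 to 27.3) and Dusp16 at 17.5% (17.2 to 17.9). Per kilobase of the main transcript, Dusp3, Dusp6 and Dusp7 together made up 83.8% of the family at 0 h, 3.88% at 2 h and 3.48% at 4 h. Dusp1, Dusp2 and Dusp16 made up 12.4%, 94.4% and 95.3%. These trios were put together after their values were seen. The whole family had 281 reads per 1000000 at 0 h, 1503 at 2 h and 1240 at 4 h.

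In the order of levels per kilobase at 0 h, Dusp3 (355 normalized reads per kilobase) was followed by Dusp7 (216), Dusp6 (76.6), Dusp1 (62.4), Dusp16 (19.7), Dusp2 (13.5), Dusp5 (13.0), Dusp4 (8.22), Dusp10 (5.76) and Dusp8 (2.54). The counting intervals of the neighbours overlapped for Dusp6 and Dusp1, and for each neighbouring pair from Dusp16 down to Dusp8. At 4 h the order began with Dusp1 (5308), Dusp2 (3657) and Dusp16 (756), which did not overlap, and Dusp7 (173) and Dusp3 (165) overlapped. Exons of 4 members overlap another gene in GENCODE M21, and whether counting used strand is not given in the sources used here. For Dusp1 this is Ergic1, with 453, 219 and 1291 reads. For Dusp3 and Dusp8 it is Gm20659 and Gm32786, which had no reads. For Dusp5 it is AC137853.2, which was not found among the genes of the LPS experiment.

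**Figure D3:**
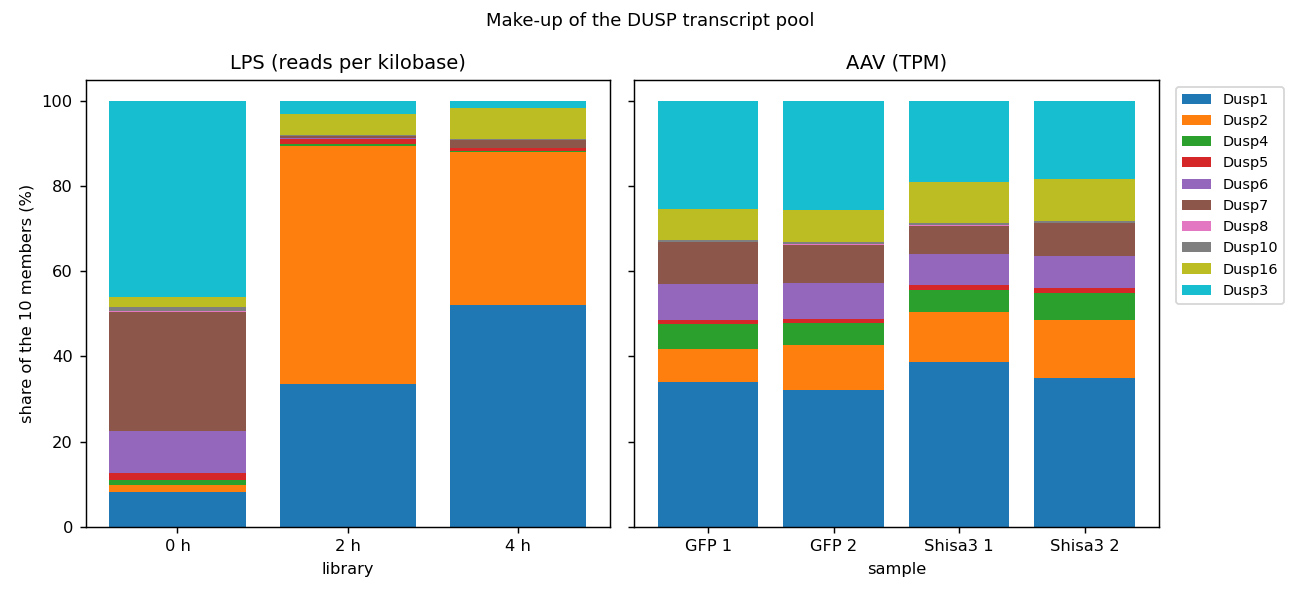
Share of each member in the family, in percent of reads per kilobase for the 3 LPS libraries and in percent of TPM for the 4 AAV samples. Dusp3 and Dusp7 fill most of the 0 h bar, Dusp1 and Dusp2 fill most of the 2 h and 4 h bars, and in the AAV samples the Dusp3 share is 25.3% and 25.6% with AAV-GFP and 19.1% and 18.3% with AAV-Shisa3.

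The other genes of the pathway were taken from lists of 91 genes, of which 80 were kept in the LPS table. At 2 h 28 of them were at least 2-fold higher and 18 lower, against 20.5% and 24.7% of all genes kept, with a median log2 difference of 0.26 against -0.05 for all genes kept, and of -0.40 against -0.70 with library totals. The listed immediate-early genes, mostly of transcription factors and classical targets of MAP kinase signaling, had 11 of 14 higher and 0 lower at 2 h. The counts at 4 h were the same. With library totals 10 were higher and 1 lower at 2 h, and 6 were higher at 4 h. Of the 11 at 2 h, Fosb, Fosl1 and Egr3 rest on at most 4 reads in either library. Fos itself had 298 normalized reads at 0 h, 164 at 2 h and 609.7 at 4 h, and it is named, like these 3, after the values were seen. Junb, an AP-1 subunit, went from 1075 normalized reads at 0 h to 24138 at 2 h and 11275 at 4 h, and Fosl2 and Jund were highest at 2 h as well. Among the Sprouty and Spred inhibitors of the Ras-ERK pathway 3 of 6 were higher and 1 lower at 2 h, and Spred1 was 8.29-fold higher, while Spry1, counted as higher, and Spry4, the lower one, rest on 3 and 5 reads and are named after their values were seen. Of the other dual-specificity phosphatases, which are mostly small atypical enzymes, 12 were kept, and 1 was higher (Dusp14, on 9 reads at 2 h) and 5 lower at 2 h (Dusp13, Dusp18, Dusp19, Styx and Styxl1, on 0 to 11 reads at 2 h), with a median of -0.30. These 6 are named after their values were seen. Dusp11, an RNA phosphatase, had 1341, 1771 and 2523 normalized reads, and Dusp22 had 248, 164 and 77.7.

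The MAP kinases themselves are what the DUSPs act on, and of the 10 kept 2 were higher and 2 lower at 2 h, with a median of -0.23, and 2 higher and 4 lower, with a median of -0.89, with library totals. Mapk6 (ERK3) was 4.85-fold higher, Mapk11 (p38β) 3.72-fold higher and Nlk 3.31-fold lower at 2 h. Among 7 MAP2 kinases 3 were higher and 1 lower at 2 h, and the higher ones named by rule were Map2k3 at 4.80-fold, Map2k4 at 4.30-fold and Map2k1 at 2.83-fold, while library totals gave 2 higher and 2 lower. Of 17 MAP3 kinases 3 were higher and 6 lower at 2 h. Map3k6 was 6.05-fold higher, Map3k8 (Tpl2), which links Toll-like receptors to ERK, 5.34-fold, and Map3k5 3.48-fold. In the group of 10 kinases that MAP kinases activate 3 were higher and 1 lower, with Mapkapk2 (MK2), the p38-activated kinase that stabilizes cytokine mRNAs, 10.7-fold higher. With library totals the counts of this group turned to 1 higher and 3 lower, and its median went from 0.55 to -0.11. Mknk2 had 2702, 1293 and 170 normalized reads and so was 15.9-fold lower at 4 h. Of 4 other MAP kinase phosphatases 2 were higher and 2 lower at 2 h, and 0 were higher with library totals.

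The AAV comparison asks which transcripts differ when BMDMs carry Shisa3 in place of GFP, and 9 of the 10 members passed the filter of a mean of at least 1 TPM. Dusp16 and Dusp1 rose with AAV-Shisa3 and no member fell, at an adjusted p under 0.05 from limma over 11218 genes, against 2.23% of all genes higher and 4.1% lower. Without adjustment 4 members had a p under 0.05 (Dusp1, Dusp2, Dusp5 and Dusp16), against 28% of all genes. For 5 of the 9 members the 2 AAV-Shisa3 samples exceeded each AAV-GFP sample (Dusp1, Dusp2, Dusp4, Dusp5 and Dusp16, against 18.2% of all genes), and for 2 they were the lower ones (Dusp3 and Dusp10, against 41.2% of all genes). The median log2 difference of the 9 was 0.26, against -0.10 for all genes tested. With any 1 of the 4 samples left out no member passed, but those fits leave 1 group with a single sample and called only 0 to 27 genes higher and 0 to 7 lower among all 11218, against 250 and 460 with all samples, so they say little about single members.

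In the AAV-GFP samples Dusp16 stood at 19.31 and 22.25 TPM, and in the AAV-Shisa3 samples at 31.87 and 34.03 TPM. The groups lay well apart, with a log2 difference of 0.64 (standard error 0.11, 95% interval 0.38 to 0.91, adjusted p = 0.0332 from limma). With each sample left out in turn the difference lay between 0.55 and 0.74, with adjusted p between 0.131 and 0.176.

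Dusp1 was at 90.25 and 96.01 TPM in the AAV-GFP samples, while the AAV-Shisa3 samples held 129.22 and 118.99 TPM. The means were 93.1 ± 4.07 and 124 ± 7.23 TPM (SD, n = 2 each), and the groups did not overlap. The log2 difference was 0.41 (standard error 0.08, 95% interval 0.21 to 0.61, adjusted p = 0.0473 from limma), close to the threshold, and between 0.35 and 0.47 with a sample left out, with adjusted p between 0.120 and 0.197. Neither Dusp16 nor Dusp1 passed in limma's test without the mean-variance trend, where the adjusted p was 0.0705 and 0.104, nor with no filter on low values (0.130 and 0.144).

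For Dusp2 the AAV-GFP samples held 20.54 and 31.37 TPM and the AAV-Shisa3 samples 39.48 and 46.81 TPM. Its log2 difference of 0.74 was the largest among the members tested with all 4 samples, but the AAV-GFP samples also differed from each other, and it did not pass the threshold (95% interval 0.23 to 1.24, adjusted p = 0.0903 from limma). Dusp5 had 2.85 and 2.61 TPM against 3.84 and 3.89 TPM (log2 difference 0.38, adjusted p = 0.173), and Dusp4 15.63 and 15.58 TPM against 16.99 and 21.04 TPM (0.26, interval -0.06 to 0.58, adjusted p = 0.245). With each sample left out in turn the difference of Dusp2 ranged from 0.44, without AAV-GFP sample 1, where Dusp16 had 0.55, to 1.03 without AAV-GFP sample 2. That of Dusp4 ranged from 0.12, without AAV-Shisa3 sample 2, to 0.41 without AAV-Shisa3 sample 1. In Dusp2, Dusp5 and Dusp4 the AAV-Shisa3 samples were the higher ones, without a call.

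**Figure D4:**
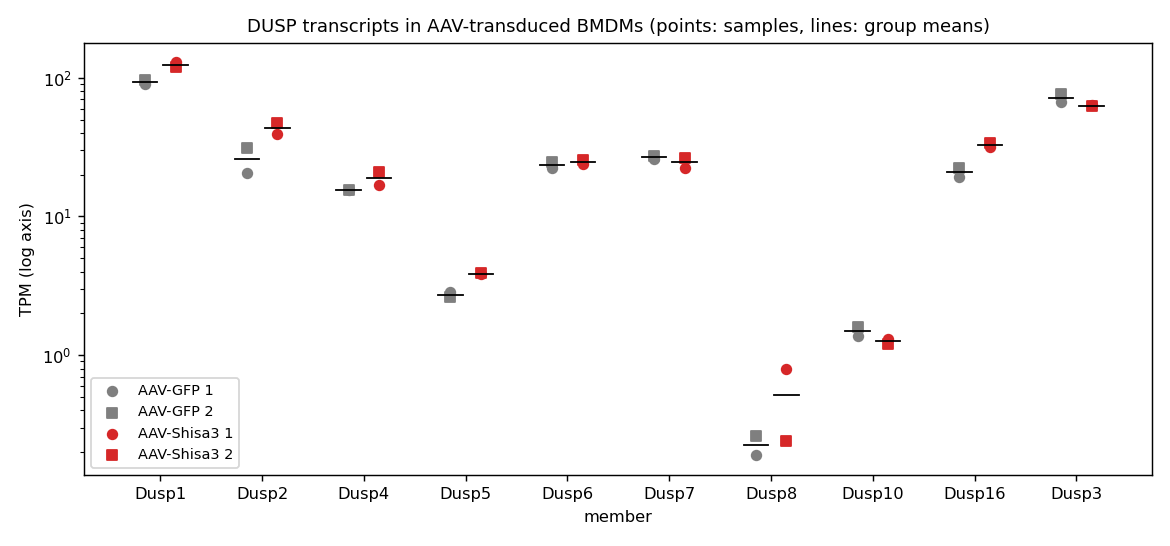
TPM of each member (log axis) in the 2 AAV-GFP and the 2 AAV-Shisa3 samples, with points for samples and lines for group means. The groups are apart for Dusp1, Dusp2, Dusp4, Dusp5 and Dusp16, where AAV-Shisa3 is higher, and for Dusp3 and Dusp10, where it is lower.

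The ERK-selective phosphatases were not called, and their AAV-GFP and AAV-Shisa3 samples overlapped. Dusp6 was at 22.47 and 24.77 TPM under AAV-GFP and at 23.91 and 25.66 TPM in the AAV-Shisa3 samples, with a log2 difference of 0.07 and an interval of -0.18 to 0.32. Dusp7 had 26.12 and 27.28 TPM against 22.46 and 26.54 TPM, with -0.12 and an interval of -0.40 to 0.15. Dusp3 had 67.24 and 76.35 TPM against 63.76 and 62.36 TPM (-0.18, interval -0.41 to 0.04), and Dusp10 1.37 and 1.6 TPM against 1.31 and 1.2 TPM (-0.14, interval -0.61 to 0.34). For Dusp3 and Dusp10 the groups did not overlap, but the adjusted p from limma was 0.256 and 0.667. Dusp8 had 0.19 and 0.26 TPM against 0.8 and 0.24 TPM and was too low to be tested.

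**Figure D5:**
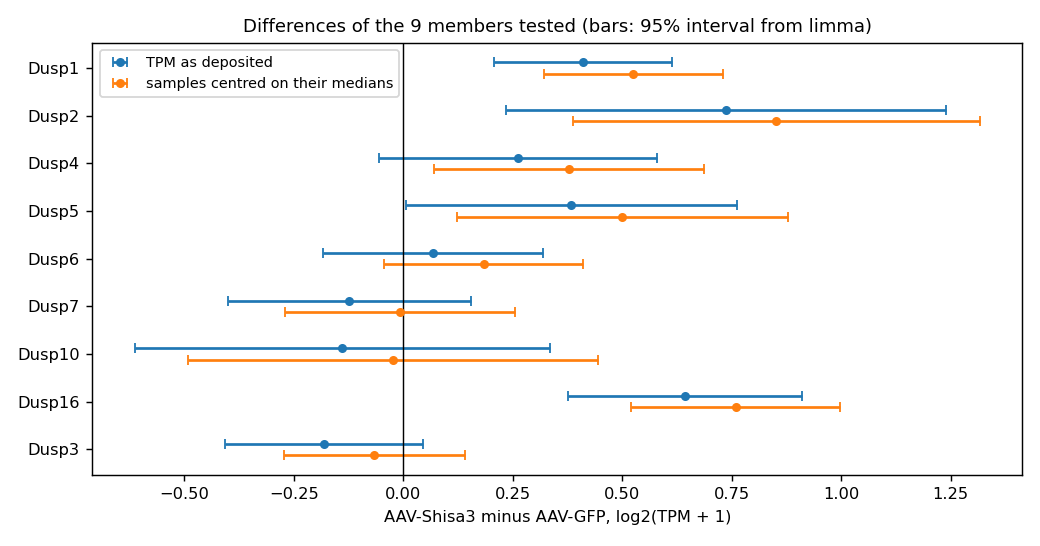
Log2 differences between AAV-Shisa3 and AAV-GFP for the 9 members tested, with 95% intervals from limma, for the TPM as deposited and with each sample centred on its median. Dusp1, Dusp2, Dusp5 and Dusp16 have intervals above 0 in both, and each of the 9 estimates lies further to the right after centring.

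Centring each sample on its median moved the median log2 difference of all genes from -0.10 to 0.01, and by its construction raised each member by the same 0.12. Dusp16 and Dusp1 were called there as well (adjusted p = 0.0233 and 0.0330 from limma), against 3.65% of all genes higher and 2.05% lower, and none of the 9 members changed sign. The summed TPM of the family was 282 ± 22.7 with AAV-GFP and 337 ± 5.03 with AAV-Shisa3 (SD, n = 2 each), so a member whose TPM stayed level has a smaller share there. As a share of this sum, which the scaling does not touch, Dusp3 was 25.4% ± 0.235 with AAV-GFP and 18.7% ± 0.573 with AAV-Shisa3 (SD, n = 2 each). Dusp16 was 7.36% ± 0.144 and 9.77% ± 0.307, and Dusp7 was 9.49% ± 0.473 and 7.26% ± 0.747. These shares are tied to each other through the common sum, and an exact two-sided permutation test of 2 against 2 samples cannot call their differences. In the AAV-GFP samples the order of mean levels was Dusp1 (93.1 TPM), Dusp3 (71.8), Dusp7 (26.7), Dusp2 (25.96), Dusp6 (23.6), Dusp16 (20.8), Dusp4 (15.6), Dusp5 (2.73), Dusp10 (1.49) and Dusp8 (0.225), and the samples of the neighbouring pairs from Dusp7 to Dusp6 overlapped.

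Of the 91 listed pathway genes 69 were tested in the AAV comparison, and 4 were higher and 5 lower at an adjusted p under 0.05, against 2.23% and 4.1% of all genes tested. The 4 higher ones were immediate-early genes, out of 12 tested. Fos had 48.64 and 52.58 TPM against 82.29 and 80.35 TPM (log2 difference 0.67, adjusted p = 0.0206 from limma). Fosl1 (1.19, adjusted p = 0.0292) and Ier2 (0.69, adjusted p = 0.0338) also rose, and the fourth was Junb (0.55, adjusted p = 0.0236), named after its value was seen. The median of the 12 was 0.34. The 5 lower genes were kinases. Mapk14 (p38α), a main substrate of Dusp1, had 64.06 and 62.47 TPM against 39.49 and 42.44 TPM and so fell (-0.62, adjusted p = 0.0233 from limma). Mknk1 (-0.69) and Mknk2 (-0.96), kinases of the translation factor eIF4E, fell with adjusted p of 0.0292 and 0.0178, and the MAP3 kinases Map3k12 (-1.11) and Map3k4 (-1.03) with 0.0283 and 0.0363. None of the 6 MAP2 kinases, 4 Sprouty and Spred genes, 7 other dual-specificity phosphatases and 4 other MAP kinase phosphatases tested was called. With any 1 of the 4 samples left out, 0 of the 69 pathway genes passed, in the same fits that called 0 to 27 genes higher and 0 to 7 lower in the whole table. Without the mean-variance trend, and with no filter on low values, 0 of these 9 calls remained.

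Set side by side, the 2 members called with AAV-Shisa3, Dusp16 and Dusp1, were 29.4-fold and 63.1-fold higher after 2 h of LPS, while Dusp2, with 485-fold, was not called. Dusp6 was 2.89-fold lower after 2 h of LPS and had a log2 difference of 0.07 with AAV-Shisa3. The experiments were quantified in separate tables with different units, and their difference was not tested.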

How the data were processed

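RNA of BMDMs was sequenced by the authors in 2 experiments. For the LPS libraries the authors deposited a signal per gene, a read count divided by a factor per library. Divided by a library's lowest value above 0, 100% came out whole (tolerance 0.01 of a read), so reads were recovered. For the AAV samples the deposited values were read as TPM, since they sum to 999778 to 999818 per sample. The labels name the build mm9, and the aligner and quantifier are not given in the sources used here. Members and lists were chosen with earlier results of these data known.

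LPS log2 differences and 2-fold calls used log2(value + 1) for the 17854 genes whose mean value reached 1, and printed folds are ratios of the values. AAV groups were compared with limma 3.58.1 (R 4.3.3, trended, log2(TPM + 1), mean of at least 1 TPM, Benjamini-Hochberg, threshold 0.05). TMM factors came from edgeR 4.0.16. The design foresaw proteins, which were not analysed here. Transcript lengths and positions came from GENCODE M21 (GRCm38). Pathway genes were named by the largest log2 differences, at most 3 per list: those called with AAV-Shisa3, and at 2 h of LPS those with over 30 reads in each library. Alternatives covered scaling, trend, filter, pseudocount, replicate block and each AAV sample left out.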

Additional observations from a re-analysis of the deposited data

How the results depend on the processing

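With 1 library per LPS time point the spread between cultures is not measured, and the LPS intervals cover counting error only. That error comes mostly from the reads at 0 h for members that rose and at 2 h for Dusp6, Dusp7 and Dusp10. The AAV comparison is limited by 2 samples per group, and the depth of its samples is unknown. For the AAV comparison, the 2 members called higher fell to 0 without the limma trend (4 at an unadjusted p under 0.05) and to 0 when no gene was filtered out for low values (3 unadjusted), and the pathway genes called, 4 higher and 5 lower, fell to 0 and 0 in both of these fits (7 higher and 20 lower, and 12 higher and 22 lower, unadjusted). Over all genes those fits called 5 and 0. Without the trend the adjusted p of Dusp16 and Dusp1 was 0.0705 and 0.104. With each AAV sample left out in turn, the members called higher ranged from 0 to 0 (2 to 4 unadjusted) and the pathway genes called higher and lower from 0 to 0 each (6 to 10 and 12 to 15 unadjusted). No sign of a member with AAV-Shisa3 changed under these alternatives. The replicate numbers were not shown to pair the samples (correlation of the deviations of the samples numbered 1 across genes 0.19); with the replicate block 8 pathway genes were lower and Dusp2 passed (adjusted p = 0.0247), while calls over all genes went from 250 higher and 460 lower to 424 and 851. For LPS at 4 h, library totals gave 4 members higher, 16 pathway genes higher and 32 lower, against 7, 27 and 20, and centring gave 1 member lower at 4 h than at 0 h and 1 lower than at 2 h, against 2 each. The other 65 LPS and 31 AAV values of the pooled counts of members and pathway genes over these settings stayed within 1.5 times, which does not cover the counts of single lists.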
